A study of Saccharomyces cerevisiae with 8 samples.

Results

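RNA of budding yeast (Saccharomyces cerevisiae) was compared before and 15 min after rapamycin was given to cells whose nuclear poly(A)-binding protein Nab2 can be anchored outside the nucleus. The comparison takes 4 of the 8 libraries of the study, 2 at 0 min and 2 at 15 min, which the labels call biological replicates, and runs over 7658 annotated features. Both groups are of strain Y3284, with the genotype tor1-1, an fpr1 deletion (fpr1::loxPLEU2-LoxP), RPL13A-2xFKBP12 and NAB2-FRB::HIS, grown in YPAD. The 0 min cells had no treatment and the 15 min cells had rapamycin at 1 µg/ml. The other 4 libraries, 2 of the same strain at 30 min and 2 of strain Y2615 at 30 min (MATa, the same alleles but no FRB tag on NAB2), entered the statistical fit to estimate the spread, and their levels are given side by side. No untagged library of 15 min was used, so loss of nuclear Nab2, exposure to rapamycin and time in culture cannot be told apart in this comparison.

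Nab2 coats the poly(A) tails of new messenger RNA in the nucleus, helps to set tail length and takes part in export of the message. In anchor-away, rapamycin bridges the FRB tag on the target to the FKBP12 tag on Rpl13a, a ribosomal protein that is assembled in the nucleus and exported, and the target leaves with it. The tor1-1 allele and the loss of Fpr1, the yeast protein that rapamycin binds, keep the drug from inhibiting the TOR kinase. Nuclear RNA that is not protected or exported is degraded by the exosome, with the helper complex TRAMP, and many short noncoding RNAs are ended by the Nrd1-Nab3-Sen1 complex and handed to the same machinery.

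Total counts were 17022931 and 14711832 at 0 min and 9308525 and 7562657 at 15 min. Features at 0 counts made up 14.6% and 12.3% at 0 min, 24.4% in 15 min replicate 1 and 12.9% in 15 min replicate 2. The first 15 min library thus missed more features than its partner at a larger total, and results are given without it where they rest on it. Levels of single features are CPM, counts relative to the library total after scaling by TMM factors, in the order replicate 1, replicate 2. A change is the fitted log2 ratio of 15 over 0 min with its standard error, and a feature passed the test at a Benjamini-Hochberg adjusted p under 0.05 in edgeR's quasi-likelihood test over all tested features. All changes are relative to the bulk of the RNA, so a change of total RNA per cell cannot be read from them.

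The components of the anchor system did not pass the test. NAB2 lies on chromosome VII from 278946 to 280523 (build R64, feature ST4817) and stood at 264 and 211 CPM at 0 min and 164 and 174 CPM at 15 min. Both 15 min values were the lower ones, and the change of -0.49 ± 0.28 had an edgeR adjusted p of 0.851. RPL13A, the anchor, had 381 and 275 CPM at 0 min and 250 and 279 CPM at 15 min, and TOR1, the kinase that carries the resistance allele, had 81.4 and 124 against 81 and 102. The groups overlapped in both genes. FPR1 is deleted in this strain per its genotype label, and its feature held 3 and 31 reads at 0 min and 0 and 1 reads at 15 min.

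At 15 min the RNAs of a transcription terminator, a cleavage factor and a TRAMP polymerase were raised. Raised with them were hypoxic genes, their repressor ROX1, a carbonic anhydrase, a citrate synthase and 1 cryptic transcript. Lowered was 1 of the paired genes of a ribosomal protein. Of 6189 features tested, 10 passed, which is 0.162%. The 9 that rose (0.145%) were NRD1, HRP1, TRF5, CUT377, ROX1, ANB1, OLE1, NCE103 and CIT2, and the 1 that fell (0.0162%) was RPS9A. An unadjusted p under 0.05 was seen in 423 features (6.83%), of which 165 (2.67%) were higher and 258 (4.17%) lower at 15 min. The median change of all tested features was -0.06, and 68.5% of features lay on the same side of the 0 min mean in both 15 min libraries. The groups did not overlap in 2812 features (45.4%).

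**Figure D1:**
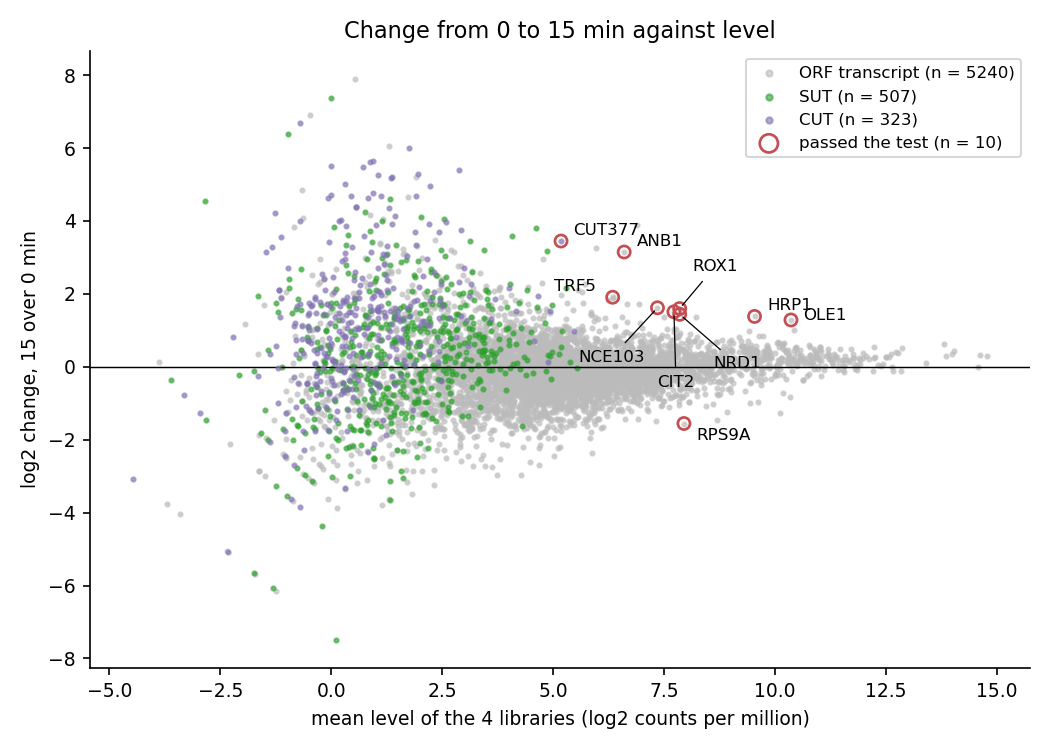
Change from 0 to 15 min (y axis, log2) against the mean level of the 4 libraries (x axis, log2 CPM) for ORF transcripts (grey), SUTs (green) and CUTs (purple), 1 point a feature (1 ORF transcript with 0 counts in these libraries is not drawn). Red rings mark the 10 features that passed, of which CUT377 at 3.45 and ANB1 at 3.15 lie highest and RPS9A at -1.55 lies below 0.

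The count depends on single libraries and on the scaling. Without 15 min replicate 1, which had the many features at 0, no feature passed edgeR's quasi-likelihood test (175 at an unadjusted p under 0.05), and without 0 min replicate 1 ANB1 alone passed. Without 15 min replicate 2, 15 features passed, among them CUT377, ROX1 and TRF5 of the 10. Without 0 min replicate 2, 9 passed, among them ROX1 and RPS9A. Without the 3 libraries over 20% at 0 counts, 3 passed, and CUT377 was the 1 shared with the 10. Scaling by total size gave 29 calls with 11 rises, scaling on snoRNA counts 1063 with 6 rises, and scaling on mitochondrial genome counts 0 calls (437 at an unadjusted p under 0.05). Scaling on snoRNA counts rests mainly on 1 feature, SNR30, and scaling on mitochondrial genome counts on the COX1 intron. The COX1 intron held 7625 and 7646 of 8092 and 8098 mitochondrial genome reads at 0 min. At 15 min it held 5814 and 4439 of 6022 and 4722. The sign of each of the 10 changes was kept in all 25 alternative settings run.

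NRD1, HRP1, TRF5 and CUT377 belong to the machinery that ends and removes nuclear RNA or to its substrates. NRD1 (feature ST6456, chromosome XIV, 172588 to 174315), whose protein binds new RNA and ends transcription of short noncoding genes, had 142 and 107 CPM at 0 min and 341 and 335 CPM at 15 min. It rose by 1.44 ± 0.26 (edgeR adjusted p = 0.0276). At 30 min it had 484 and 520 CPM and in the untagged control 125 and 163 CPM, so that the 30 min libraries were the highest and the control lay at the level of 0 min. HRP1 (ST2998, chromosome XV, 87844 to 89448), a subunit of the cleavage factor that prepares messages for polyadenylation, had 410 and 416 CPM at 0 min and 1145 and 1006 CPM at 15 min, a rise of 1.38 ± 0.24 (edgeR adjusted p = 0.0250). Its levels were 1249 and 1226 CPM at 30 min and 467 and 388 CPM in the control. Both 15 min libraries and both 30 min libraries thus held more HRP1 RNA than any of the other 4.

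TRF5 (ST2722, chromosome XIV, 66517 to 68445) encodes a poly(A) polymerase of TRAMP, which adds short tails to nuclear RNA before decay. It had 32.9 and 35.5 CPM at 0 min and 160 and 96.2 CPM at 15 min, a rise of 1.91 ± 0.36 (edgeR adjusted p = 0.0339), with 153 and 160 CPM at 30 min and 47.7 and 29.8 CPM in the control. The 15 min replicates differed in how high they stood, and both were above every 0 min and control library. TRF5 was no longer called by total library size or with a minimum mean of 50 counts. Its paralog PAP2 (also called TRF4) shares 57.2% of its coding bases with TRF5 and had 14.7 and 29 CPM at 0 min and 26.8 and 20.4 CPM at 15 min, with overlapping groups and a change of 0.11 ± 0.70 (edgeR adjusted p = 1). CUT377 (ST3128), a cryptic unstable transcript, had 6.83 and 5.3 CPM at 0 min, 81.5 and 51.2 CPM at 15 min, 49.2 and 39.1 CPM at 30 min and 3.09 and 7.17 CPM in the control. In raw counts it went from 108 and 88 to 696 and 352, and its rise of 3.45 ± 0.60 was the largest of those that passed (edgeR adjusted p = 0.0250).

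**Figure D2:**
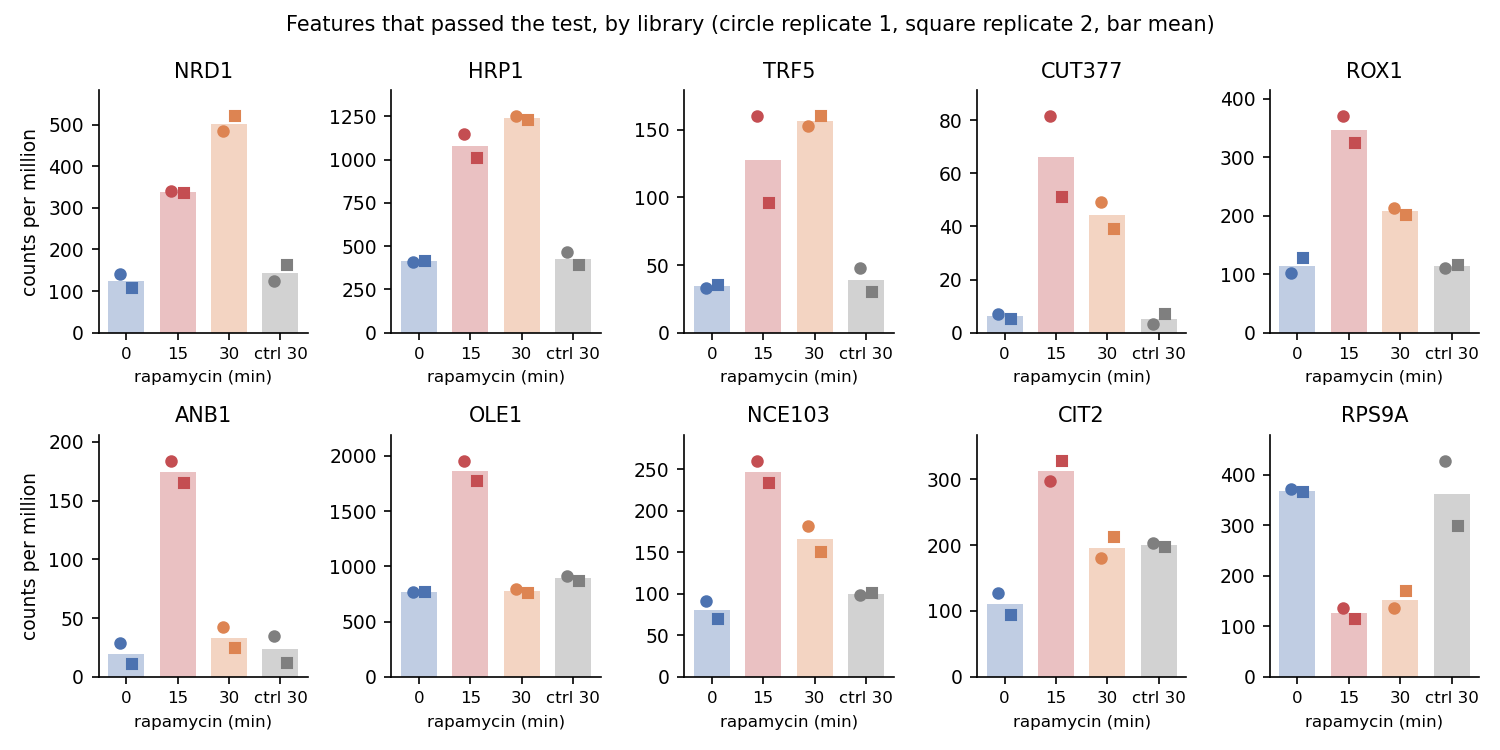
Level of each feature that passed the test (y axis, CPM, from 0) at 0, 15 and 30 min in the anchor-away strain and at 30 min in the untagged control (x axis), with a circle for replicate 1, a square for replicate 2 and a bar for their mean. NRD1, HRP1, TRF5 and CUT377 stay above 0 min at 30 min, OLE1 is at 791 and 760 CPM at 30 min against 766 and 764 CPM at 0 min, and RPS9A is low at both times.

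Other genes of the same complexes did not pass the test. In the list of nuclear RNA decay, with 24 genes, 2 rose (NRD1 and TRF5) and none fell, while 16 had a negative change and the median was -0.27, against -0.06 for all features. The median was -0.49 without 0 min replicate 1 and -0.05 without 0 min replicate 2. NAB3, the partner of Nrd1, had 350 and 354 CPM at 0 min and 194 and 170 CPM at 15 min, a change of -0.95 ± 0.25 that did not pass (edgeR adjusted p = 0.185). SEN1, the helicase of the same complex, had 160 and 169 CPM at 0 min and 124 and 110 CPM at 15 min. RRP42, a subunit of the exosome ring, had 79.2 and 91.5 CPM against 31.4 and 44.1 CPM. Neither SEN1 nor RRP42 passed. In 9 of the 24 genes both 15 min libraries were below both 0 min libraries, which 26.3% of all features showed, and in 2 both were above.

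Of 22 genes of cleavage and polyadenylation, HRP1 alone rose, none fell and the median was -0.05, with -0.28 without 0 min replicate 1 and 0.06 without 15 min replicate 1. PAB1, the poly(A)-binding protein of the cytoplasm, had 1449 and 1446 CPM at 0 min and 2106 and 2109 CPM at 15 min, a change of 0.54 ± 0.24 (edgeR adjusted p = 0.643). CLP1, which works beside Hrp1 in cleavage factor I, had 46.5 and 47.1 CPM against 17.9 and 21.5 CPM, a change of -1.25 ± 0.56 (edgeR adjusted p = 0.653). RNA14, of the same factor, had 1.01 and 18 CPM against 36.4 and 15.7 CPM, and its groups overlapped (change 1.45 ± 1.01, edgeR adjusted p = 0.908). Among 28 tested genes of mRNA packaging and export none passed, and the median was -0.19, which was -0.04 without 0 min replicate 2 and -0.09 without 15 min replicate 2. GBP2, which binds messages on their way out, had 171 and 111 CPM at 0 min against 90.4 and 104 CPM at 15 min, and YRA1, an export adaptor, 533 and 398 CPM against 566 and 537 CPM.

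NRD1 and HRP1 are among the genes whose own transcription is known to be cut short by Nrd1-dependent termination. That list held 13 tested members, of which these 2 rose and none fell, and its median was 0.13, which turned to -0.03, -0.34 and -0.70 when libraries were scaled by total size, mitochondrial genome counts and snoRNA counts. CLN3, a cyclin of the start of the cell cycle, had 158 CPM in each 0 min library and 267 and 289 CPM at 15 min, a change of 0.82 ± 0.29 that did not pass (edgeR adjusted p = 0.448). URA2, the first enzyme of pyrimidine synthesis, had 1124 and 1205 CPM against 1746 and 1635 CPM, a change of 0.54 ± 0.26 (edgeR adjusted p = 0.733). IMD3, of guanine nucleotide synthesis, had 573 and 455 CPM against 561 and 566 CPM, and the groups overlapped. In 5 of the 13 both 15 min libraries were above both 0 min libraries and in 3 both were below, against 19.1% and 26.3% of all features. Those below were URA8, with 105 and 79 CPM against 33.6 and 70.7 CPM, URA4 and KAP95. Their changes were -0.82, -0.51 and -0.33, and none passed. FKS2 and IMD2 of that list had no single-gene feature.

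CUTs, SUTs, snoRNAs and snRNAs took a larger share of the counts in both 15 min libraries. So did mitochondrial genome features, mostly reads of the COX1 intron, at 0.0475% and 0.055% at 0 min and 0.0647% and 0.0624% at 15 min. The tRNAs did too, on 31 and 86 reads at 0 min and 62 and 75 reads at 15 min. ORF transcripts took a smaller share, 93.6% and 94.8% at 0 min and 92.2% and 91.4% at 15 min. The shares of introns and of the class with SCR1, RPR1 and NME1 overlapped between the groups. Cryptic unstable transcripts (CUTs), which the exosome usually removes, took 0.057% and 0.0596% of counts at 0 min and 0.126% and 0.119% at 15 min, a ratio of 2.10. The exact 95% binomial (Clopper-Pearson) intervals at 15 min ran from 0.1233% to 0.1279% and from 0.1167% to 0.1217%, and cover counting error only. Leaving CUT377 aside, the shares were 0.0564% and 0.059% at 0 min and 0.118% and 0.115% at 15 min. With 2 libraries a group the smallest exact permutation p is 0.33, so class shares are described and not tested.

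The CUTs behind that share differed between the 15 min replicates. Of 925 CUTs, 490 and 535 had a count at 0 min, 241 in 15 min replicate 1 and 545 in 15 min replicate 2. The 10 most abundant CUTs of each library held 26.1% and 22.1% of CUT counts at 0 min and 29% and 26.6% at 15 min. Of the 323 CUTs that passed the count filter, CUT377 rose, none fell and 245 had a positive change, and the median was 1.18. Since a CUT could pass the filter through its later libraries alone, those 323 do not stand for all 925. Against the 0 min mean the median was 0.06 in 15 min replicate 1 and 1.04 in replicate 2, and the fitted median fell to 0.01 without replicate 2 and was 1.15 without replicate 1.

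Single CUTs and SUTs show how far the changes reached. CUT557 held 162 and 173 reads at 0 min and 218 and 376 reads at 15 min, or 10.2 and 10.4 CPM against 25.5 and 54.7 CPM. CUT445 went from 5.63 and 5.96 CPM to 26.5 and 25.8 CPM, with close replicates at both times. CUT866 had 0 and 11 counts at 0 min and 194 and 42 at 15 min, and CUT281, the CUT with the most counts, had 34.1 and 25.5 CPM against 69.9 and 47 CPM. In all 4 the 15 min libraries were the higher ones, and none passed the test (edgeR adjusted p from 0.368 to 0.688). CUT866 was named for its small p, and CUT557 and CUT445 were chosen after their values were seen. Of the 323 tested CUTs, 109 had both 15 min libraries above both 0 min libraries and 17 had both below. Over all tested features these shares were 19.1% and 26.3%. A CUT could pass the count filter through its later libraries alone.

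Stable unannotated transcripts (SUTs), noncoding RNAs that are seen in wild-type cells, took 0.229% and 0.252% of counts at 0 min and 0.319% and 0.297% at 15 min, a ratio of 1.28. None of 507 tested SUTs passed. At an unadjusted p under 0.05, 11 of the 507 were higher and 0 lower, against 2.67% and 4.17% of all tested features. Their median of 0.34 turned to -0.13 and -0.52 on mitochondrial genome and snoRNA scaling and to -0.18 without 15 min replicate 2. SUT198 had 4.68 and 1.81 CPM at 0 min and 53 and 38.1 CPM at 15 min, a change of 3.81 ± 0.75 (edgeR adjusted p = 0.0644). SUT307 had 3.79 and 7.77 CPM against 61.3 and 44 CPM, a change of 3.18 ± 0.68 (edgeR adjusted p = 0.0738). Both stood well clear of their 0 min libraries and missed the threshold. SUT802, the SUT with the most counts, had 51.8 and 42.7 CPM against 37.9 and 54.1 CPM.

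Structural RNAs that work in the nucleus also took a larger share. The snoRNAs, which mostly guide modification of ribosomal RNA, went from 0.282% and 0.251% to 0.399% and 0.447% of counts. The snRNAs of the spliceosome went from 1.07% and 1.44% to 2.21% and 1.69%. Most of each share was 1 RNA. SNR30 held 42197 and 27908 of 47939 and 36920 snoRNA reads at 0 min, and 28795 and 28754 of 37173 and 33813 at 15 min. LSR1 held 160877 and 178256 of 182106 and 212236 snRNA reads at 0 min, and 177959 and 105344 of 206002 and 127768 at 15 min. The medians of snoRNAs and snRNAs were 0.80 over 27 and 0.95 over 3 tested features, none of which passed. On snoRNA scaling these medians became -0.07, by construction, and 0.06. Without 0 min replicate 2 the snoRNA median was 1.71. SNR30, a snoRNA needed to process the small-subunit ribosomal RNA, had 2667 and 1681 CPM at 0 min and 3371 and 4185 CPM at 15 min, and SNR86 161 and 371 CPM against 676 and 417 CPM. SNR19, the U1 snRNA, had 1308 and 2005 CPM against 3218 and 3182 CPM, and LSR1, the U2 snRNA, 10170 and 10736 CPM against 20832 and 15333 CPM. NME1, the RNA of RNase MRP, had 23.3 and 42 CPM against 72.3 and 102 CPM. RPR1, the RNA of RNase P, had 1023 and 663 CPM against 1154 and 1824 CPM. SCR1, the RNA of the signal recognition particle, had 48305 and 25963 CPM against 48604 and 62483 CPM, so its 0 min replicates lay further apart than its group means. The class of 4 structural RNAs that holds NME1, RPR1 and SCR1 took 4.59% and 3.02% of counts at 0 min and 4.58% and 5.86% at 15 min, and the groups overlapped. The labels state that most small RNA was removed in a clean-up step, and its part in these shares was not tested.

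Introns, spliced from nuclear messages, took 0.118% and 0.124% of counts at 0 min and 0.127% and 0.12% at 15 min, with overlapping groups, and none of 70 tested introns passed. In 68 genes with both an intron and a transcript feature, the intron changed by a median of 0.07 and the transcript by 0.15, and the intron had the larger change in 33 of them. The intron median was 0.81 without 0 min replicate 2, and it turned to -0.61 without 15 min replicate 2, to -0.01 without 0 min replicate 1 and to -0.10, -0.38 and -0.82 by total size, mitochondrial genome and snoRNA scaling. The HAC1 intron, removed outside the spliceosome in the unfolded protein response, had 650 and 481 CPM against 640 and 580 CPM. It held 10275 and 7988 of 20069 and 18235 intron reads at 0 min, and 5471 and 3983 of 11856 and 9089 at 15 min. A large part of the intron share is thus this 1 intron. The RPL7A intron had 21.3 and 23.5 CPM against 53.5 and 32.5 CPM, on 337 and 390 reads at 0 min and 457 and 223 at 15 min. The RPL7A transcript feature held close to the same numbers, 325 and 348 reads at 0 min and 457 and 203 at 15 min. The higher level is thus not particular to that intron.

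The 9 rises include 3 of the 19 tested genes of the hypoxic and Rox1-repressed list, among them the repressor gene ROX1 itself. Of all tested features 0.145% rose. The list was chosen with earlier results of these data known, so its share of the rises is no independent evidence. In air, haem, whose synthesis needs oxygen, sustains transcription of ROX1, whose protein represses many of the listed genes and also its own. A separate pathway through the membrane-bound factor Mga2 senses unsaturated fatty acids and low oxygen and drives OLE1. Because these features rose, the promoter stretches of ANB1 and OLE1 are shown, from 400 to 101 bases before the start codon on the strand of the gene (RefSeq, R64), with capitals marking ATTGTT, the core of the Rox1 motif, on either strand (AACAAT is the same motif on the opposite strand), and in OLE1 also ACTCAACAA, the low-oxygen response element. The first lies at chrX:525482-525781 on the minus strand and the second at chrVII:398228-398527 on the plus strand.
ANB1: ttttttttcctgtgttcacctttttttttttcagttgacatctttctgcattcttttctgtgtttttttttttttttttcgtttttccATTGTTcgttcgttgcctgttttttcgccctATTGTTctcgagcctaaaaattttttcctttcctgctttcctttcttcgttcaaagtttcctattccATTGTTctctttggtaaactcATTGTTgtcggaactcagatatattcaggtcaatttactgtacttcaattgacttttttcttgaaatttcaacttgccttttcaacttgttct
OLE1: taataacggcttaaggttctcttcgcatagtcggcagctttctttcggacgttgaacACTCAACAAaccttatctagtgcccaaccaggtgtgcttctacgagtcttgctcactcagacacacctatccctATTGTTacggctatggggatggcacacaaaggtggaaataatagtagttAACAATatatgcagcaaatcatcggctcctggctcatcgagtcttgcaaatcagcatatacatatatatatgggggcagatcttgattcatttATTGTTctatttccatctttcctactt

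The ANB1 stretch holds ATTGTT 4 times, and 0.0666% of 6007 promoter stretches of the same length hold it 4 times or more on either strand, against 31.9% that hold it at least once. OLE1 holds it 3 times, as 0.732% of stretches do at 3 or more, and ACTCAACAA once, as 0.233% do. The ROX1 stretch holds ATTGTT 1 time. These motifs do not overlap each other, and a match describes the letters only.

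ANB1 (ST5548, chromosome X, 524908 to 525381) encodes the hypoxic form of the translation factor eIF5A. It had 28.6 and 10.8 CPM at 0 min, 184 and 165 CPM at 15 min, 42.1 and 24.8 CPM at 30 min and 34.9 and 12 CPM in the control. The 15 min libraries alone were high, and the rise was 3.15 ± 0.56 (edgeR adjusted p = 0.0310). ANB1 was no longer called when either 30 min library was left out of the fit, or with a minimum mean of 50 counts. Its aerobic paralog HYP2, which shares 90.9% of its coding bases with ANB1 and an identical run of 43 bases, is counted together with MTC7 as 1 feature, and that feature had 9051 and 6174 CPM at 0 min and 6780 and 7406 CPM at 15 min. CYC1, the cytochrome c gene that lies next to ANB1 and is known to be expressed in air, had 520 and 456 CPM against 360 and 383 CPM, a change of -0.39 ± 0.24 (edgeR adjusted p = 0.889).

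OLE1 (ST1172, chromosome VII, 398628 to 400160), the fatty acid desaturase that needs oxygen to work, had 766 and 764 CPM at 0 min and 1957 and 1771 CPM at 15 min, a rise of 1.28 ± 0.24 (edgeR adjusted p = 0.0310). Its 30 min values of 791 and 760 CPM lay beside those of 0 min, with 915 and 868 CPM in the control. ROX1 (ST3546, chromosome XVI, 679693 to 680799), the repressor itself, had 102 and 127 CPM at 0 min and 370 and 325 CPM at 15 min, a rise of 1.60 ± 0.26 (edgeR adjusted p = 0.0250), with 214 and 201 CPM at 30 min and 111 and 116 CPM in the control. The repressor and genes known as its targets were thus high in the same 2 libraries.

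Of the 19 hypoxic and Rox1-repressed genes tested, 3 rose, none fell, 16 had a positive change and in 12 both 15 min libraries were above both 0 min libraries, which 19.1% of all features showed. The median was 0.79 (0.89 and 0.58 in the single 15 min libraries) against -0.06 for all features, and it turned to -0.04 on snoRNA scaling. TIR1, a cell wall mannoprotein of anaerobic and cold growth, had 19.8 and 10.1 CPM at 0 min and 175 and 269 CPM at 15 min, the largest change of the list at 3.89 ± 0.70, and missed the threshold (edgeR adjusted p = 0.0644). Its 30 min values were 57.9 and 36.6 CPM. TIR3, of the same family, had 23.1 and 13.2 CPM against 63.1 and 59.8 CPM, and CYB5, cytochrome b5, 53.9 and 80.8 CPM against 120 and 127 CPM. ERG25, a sterol methyl oxidase, had 1003 and 1020 CPM against 1412 and 1355 CPM. HEM13, which makes haem and is a classical Rox1 target, had 88.3 and 64.7 CPM against 92.1 and 58.8 CPM, and HMG2, of sterol synthesis, 76.3 and 69.2 CPM against 76.4 and 70.4 CPM. These last 2 showed overlapping groups and no detectable change.

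**Figure D3:**
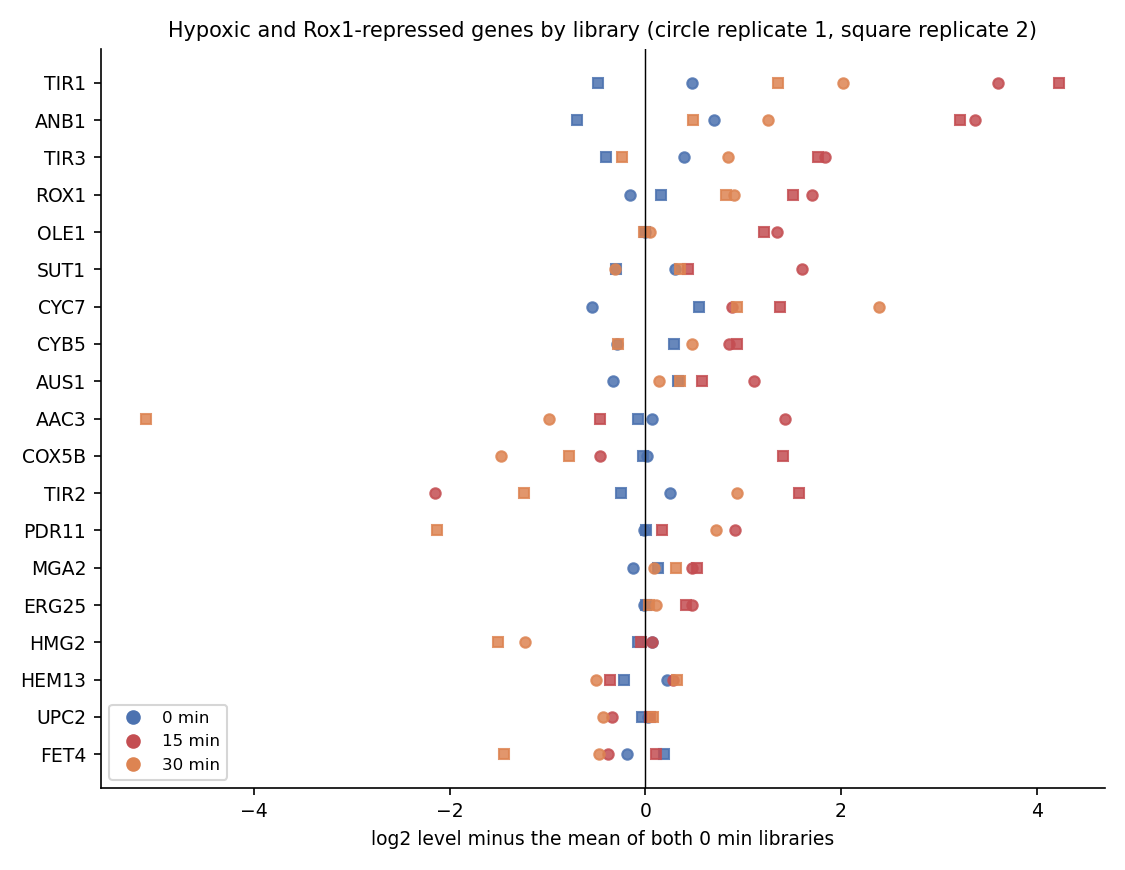
Level of each tested hypoxic or Rox1-repressed gene in each anchor-away library (x axis, log2 CPM minus the mean of both 0 min libraries), with a circle for replicate 1 and a square for replicate 2 and genes ordered by the fitted change. TIR1, ANB1, TIR3, ROX1 and OLE1 have both 15 min libraries to the right of all 0 min and 30 min libraries. HMG2, HEM13, UPC2, FET4, AAC3, COX5B and TIR2 have 15 min libraries on both sides of 0. The fitted changes of AAC3, COX5B and TIR2 were positive, at 0.79, 0.76 and 0.67.

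Of the genes that haem activates for respiration 0 of 22 passed, 11 had a positive and 11 a negative change, and the median was -0.02, which was -0.16 without 0 min replicate 1, 0.03 without 15 min replicate 1 and -0.17 without 15 min replicate 2. HAP4, the limiting subunit of the activator of respiratory genes, had 34.5 and 59.4 CPM at 0 min and 182 and 131 CPM at 15 min, a change of 1.74 ± 0.40 (edgeR adjusted p = 0.11). COX5A, the aerobic form of a cytochrome oxidase subunit, had 365 and 238 CPM against 174 and 142 CPM (edgeR adjusted p = 0.371), and YHB1, a flavohaemoglobin, 1666 and 1625 CPM against 1923 and 1750 CPM.

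NCE103 and CIT2 rose and belong to other circuits. NCE103 encodes carbonic anhydrase, known to be induced by the factor Cst6 when carbon dioxide is scarce, and CIT2 encodes the peroxisomal citrate synthase that is the standard reporter of the retrograde response from mitochondria to nucleus, driven by Rtg1 and Rtg3. Their promoter stretches, from 400 to 101 bases before the start codon on the strand of the gene (RefSeq, R64), are shown because these features passed. Capitals mark TGACGTCA, the full cAMP response element that Cst6 binds, in NCE103, and GTCAC, the core of the Rtg motif, on either strand in CIT2 (GTGAC is the same motif on the opposite strand). The first lies at chrXIV:559414-559713 on the plus strand and the second at chrIII:122429-122728 on the minus strand.
NCE103: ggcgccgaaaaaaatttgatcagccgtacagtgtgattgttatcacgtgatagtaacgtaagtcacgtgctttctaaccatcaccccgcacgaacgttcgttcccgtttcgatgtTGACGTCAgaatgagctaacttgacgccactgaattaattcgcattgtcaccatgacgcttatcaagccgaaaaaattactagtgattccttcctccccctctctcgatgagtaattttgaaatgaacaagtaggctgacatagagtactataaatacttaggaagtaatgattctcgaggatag
CIT2: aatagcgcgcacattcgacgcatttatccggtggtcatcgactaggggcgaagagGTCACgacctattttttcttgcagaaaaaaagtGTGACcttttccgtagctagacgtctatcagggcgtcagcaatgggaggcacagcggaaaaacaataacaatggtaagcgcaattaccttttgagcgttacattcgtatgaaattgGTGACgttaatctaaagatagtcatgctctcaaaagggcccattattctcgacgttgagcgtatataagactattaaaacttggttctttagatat

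TGACGTCA, which reads the same on both strands, stands once in NCE103 and in 0.133% of 6007 promoter stretches. GTCAC stands 3 times in CIT2, and 0.633% of stretches hold it 3 times or more. NCE103 also holds GTCAC 2 times, as 5.18% of stretches do at 2 or more. ATTGTT, not in capitals here, stands 2 times in CIT2, as in 6.11% at 2 or more, and 1 time in NCE103. NCE103 (ST2892, chromosome XIV, 559814 to 560479) had 91.1 and 69.3 CPM at 0 min and 260 and 233 CPM at 15 min, a rise of 1.62 ± 0.28 (edgeR adjusted p = 0.0250), with 182 and 150 CPM at 30 min and 98 and 101 CPM in the control. CIT2 (ST3958, chromosome III, 120946 to 122328) had 127 and 93.1 CPM at 0 min and 297 and 328 CPM at 15 min, a rise of 1.51 ± 0.27 (edgeR adjusted p = 0.0250). It had 180 and 212 CPM at 30 min and 203 and 197 CPM in the control. The control after 30 min of rapamycin thus also stood above the 0 min libraries in CIT2, and these 2 groups differ in strain, time and treatment.

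Around NCE103, 16 regulators and transporters of carbon dioxide, oxygen and glucose held 1 rise and no fall, with 11 positive and 5 negative changes and a median of 0.48 that turned to -0.36 on snoRNA scaling. In 8 of the 16 both 15 min libraries were above both 0 min libraries and in 4 both were below, against 19.1% and 26.3% of all features. NRG1, a repressor of glucose-repressed genes, had 7.14 and 22.3 CPM at 0 min and 70.5 and 44.4 CPM at 15 min (change 1.96 ± 0.60, edgeR adjusted p = 0.348), and ADR1, an activator of such genes, 13.3 and 25.3 CPM against 87.7 and 73.2 CPM (edgeR adjusted p = 0.448). HXT3, a glucose carrier, had 497 and 516 CPM against 842 and 670 CPM. These 3 are among the 8. The 4 that lay below were SNF1, the kinase that lifts glucose repression, with 90.9 and 89.2 CPM against 77.7 and 49.5 CPM, SUC2, invertase, with 83.9 and 96.2 CPM against 72 and 64.9 CPM, the activator CAT8 with 8.15 and 10.5 CPM against 1.76 and 7.86 CPM, and CST6 with 70.5 and 65.9 CPM against 58.8 and 64.3 CPM. None of these 7 passed, and the changes of the last 4 were -0.50, -0.40, -0.96 and -0.15.

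Of 16 tested features of the retrograde response, CIT2 rose, none fell, 14 had a positive change and the median was 0.49, which turned to -0.36 on snoRNA scaling. CIT1, the mitochondrial citrate synthase, shares 71.2% of its coding bases with CIT2, with no identical run over 21 bases, and had 92.9 and 156 CPM against 279 and 228 CPM (change 1.02 ± 0.31, edgeR adjusted p = 0.343). PYC1, a pyruvate carboxylase, had 252 and 192 CPM against 330 and 391 CPM. DLD3, a lactate dehydrogenase, had 214 and 282 CPM against 402 and 386 CPM, and ACO1, aconitase, 637 and 628 CPM against 799 and 850 CPM. These 4 did not pass. In 9 of the 16 both 15 min libraries were above both 0 min libraries and in 2 both were below, against 19.1% and 26.3% of all features. The 2 lower ones were CTP1, the citrate carrier of the inner mitochondrial membrane, with 27.6 and 26.7 CPM against 12.5 and 10 CPM (change -1.26), and ATO3, a plasma membrane carrier, with 40.5 and 32 CPM against 30.4 and 15.7 CPM (change -0.65), and neither passed.

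The rises with the next smallest p missed the threshold with edgeR adjusted p between 0.0644 and 0.128. Beside TIR1, HAP4, SUT198 and SUT307 they were INO1, TIP1, MTH1, PCL8, ALD4 and the composite feature YLR342W-A/GAS2. INO1 (ST5418), which makes inositol phosphate, had 13.7 and 10.1 CPM at 0 min and 126 and 101 CPM at 15 min, a change of 3.25 ± 0.66, with 70.1 and 22 CPM at 30 min and 45 and 11.4 CPM in the control. A second INO1 feature (ST5419) held 72 and 89 reads at 0 min and 228 and 129 reads at 15 min, more in both libraries. TIP1, a cell wall mannoprotein of the TIR family, had 203 and 130 CPM against 419 and 432 CPM, and MTH1, which represses glucose carriers, 16.4 and 19.8 CPM against 114 and 59.8 CPM. PCL8, a cyclin that restrains glycogen storage, had 16.8 and 18.8 CPM against 101 and 52.4 CPM. ALD4, mitochondrial aldehyde dehydrogenase, had 109 and 94 CPM against 223 and 302 CPM.

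RPS9A was the 1 feature that fell. RPS9A and RPS9B encode the same small-subunit protein and share 90.9% of their coding bases, with an identical run of up to 76 bases, so reads from such runs may have been given to either gene. RPS9A (ST3451, chromosome XVI, 404950 to 406044) had 371 and 366 CPM at 0 min and 136 and 115 CPM at 15 min, a fall of -1.55 ± 0.27 (edgeR adjusted p = 0.0250), with 136 and 169 CPM at 30 min and 428 and 298 CPM in the control. The 4 libraries of Nab2-tagged cells after rapamycin were thus the lowest. RPS9B had 2035 and 2486 CPM at 0 min and 2959 and 2755 CPM at 15 min, a change of 0.34 ± 0.24 that did not pass (edgeR adjusted p = 0.917) and that turned to -0.15 and -0.53 on mitochondrial genome and snoRNA scaling.

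Among 131 tested genes listed for the cytoplasmic ribosome RPS9A alone fell and none rose. The list also holds RPP1, which encodes a protein of RNase P and not of the ribosome (change -1.42, did not pass). In 101 of the 131 the change was positive. The median was 0.18, which turned to -0.29 and -0.64 on mitochondrial genome and snoRNA scaling. It was 0.32 without 0 min replicate 1 and 0.02 without 0 min replicate 2. RPS27A, another member of a paralog pair, had 815 and 550 CPM at 0 min and 341 and 232 CPM at 15 min, a change of -1.25 ± 0.34 (edgeR adjusted p = 0.248). RPL3 had 8079 and 5456 CPM against 6161 and 6379 CPM, and its groups overlapped.

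The falls with the next smallest p had edgeR adjusted p between 0.0738 and 0.145. They include COA3, RSM7 and YME1, which work in mitochondria, as an assembly factor of cytochrome oxidase, a ribosomal protein and a protease of the inner membrane. COA3 had 111 and 70.2 CPM at 0 min and 19.2 and 27.5 CPM at 15 min, RSM7 118 and 62.8 CPM against 21.7 and 30.1 CPM, and YME1 257 and 215 CPM against 54.7 and 113 CPM. ILV5, an enzyme of branched amino acid synthesis, had 1895 and 1215 CPM against 655 and 635 CPM, and MBF1, a coactivator that works with Gcn4, 715 and 504 CPM against 204 and 236 CPM. SML1, an inhibitor of ribonucleotide reductase, had 560 and 383 CPM against 229 and 215 CPM. The others were ISC1, RRD1, LYP1 and GTT3, with changes from -2.21 to -1.17.

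None of 69 tested genes of the mitochondrial ribosome passed. Their median was -0.73 (-0.60 and -0.64 in the single 15 min libraries, and -0.37 without 0 min replicate 2), and in 37 both 15 min libraries were below both 0 min libraries, against 26.3% of all features. MRPL23, of the large subunit, had 87.3 and 65.2 CPM against 25.8 and 31 CPM, while MRP4, the member with the most counts, had 131 and 123 CPM against 173 and 107 CPM. Histone genes had a median of -0.70 over 10 members, of which 0 passed, 10 had a negative change and 9 showed no overlap between groups. HHT1, a histone H3 gene, had 296 and 237 CPM against 138 and 108 CPM, a change of -1.11 ± 0.28 (edgeR adjusted p = 0.147). HTZ1, the H2A variant, had 64.8 and 44.7 CPM against 20.7 and 18.8 CPM, and HTB1, an H2B gene, 492 and 550 CPM against 287 and 334 CPM. The proteasome list had a median of -0.33 over 32 genes with 0 passing. PUP1, a catalytic subunit, had 271 and 202 CPM against 105 and 124 CPM, PUP3, another core subunit, 257 and 176 CPM against 123 and 118 CPM, and RPN2 372 and 442 CPM against 518 and 413 CPM. The medians of these 3 lists were below 0 under each of the scalings tried.

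Short genes lay lower than long genes at 15 min. In 4 bins of the ORF transcripts by annotated length, the median change was -0.28 for genes of 78 to 822 bases, -0.16 up to 1290 bases, -0.05 up to 1956 bases and -0.02 for longer genes. The order was the same in 15 min replicate 1, from -0.25 to 0.03, and in replicate 2, from -0.23 to -0.02. Both were set against the same mean of the 0 min libraries, so they are not independent. The bins were not run with a 0 min library left out. Of 1236 genes of the shortest bin 98 were lower and 16 higher at an unadjusted p under 0.05. Of 1227 genes of the longest bin 24 were lower and 40 higher. Over all tested features 4.17% were lower and 2.67% higher at that p. The median gene length was 399 bases for histones, 699 for the mitochondrial ribosome, 866 for the proteasome and 771 for the cytoplasmic ribosome, against 1278 over all tested features, and the part of length in the medians of those lists was not tested.

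**Figure D4:**
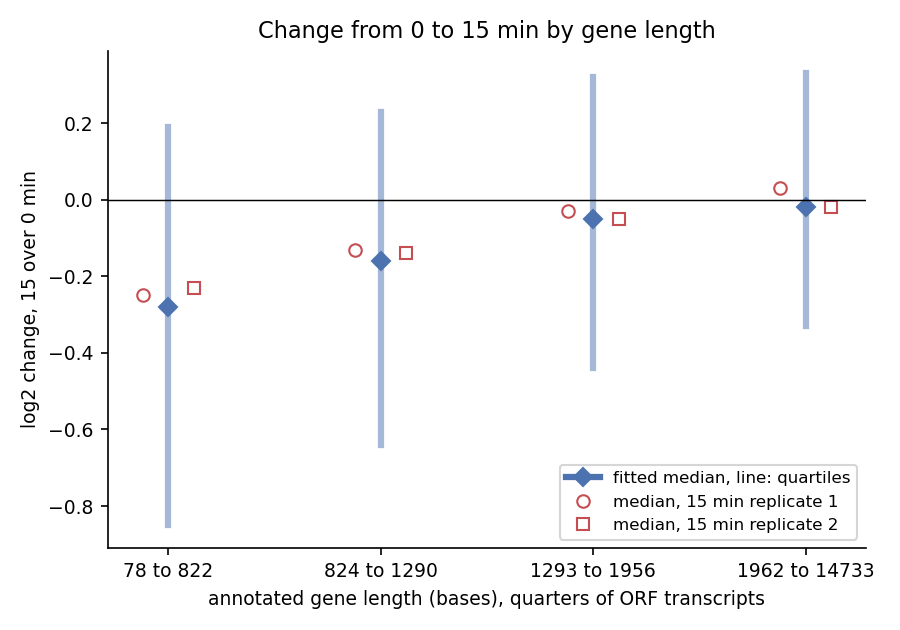
Change from 0 to 15 min (y axis, log2) of ORF transcripts in 4 bins of annotated gene length (x axis, bases), with the fitted median as a diamond, the quartiles as a line and the median of each 15 min library as an open symbol. The fitted median goes from -0.28 in the shortest bin to -0.02 in the longest, and both libraries, set against the same 0 min mean, follow it.

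The remaining lists lay near the median of all features and none of their members passed. The medians were 0.20 for amino acid synthesis under Gcn4 (34 genes), 0.15 for nitrogen catabolite repression (27), 0.15 for glycolysis and fermentation (18), 0.13 for heat shock chaperones (26) and -0.03 for ribosome biogenesis (65), and each of the first 4 turned negative on mitochondrial genome and snoRNA scaling, the last 3 of those also by total size. Without 0 min replicate 2 the 5 medians were, in that order, 0.00, -0.02, 0.02, 0.12 and 0.10. Without 0 min replicate 1 those of nitrogen genes, glycolysis and ribosome biogenesis were 0.27, 0.45 and -0.19, without 15 min replicate 1 those of Gcn4, nitrogen and ribosome biogenesis genes were 0.13, 0.28 and -0.14, and without 15 min replicate 2 those of nitrogen genes and ribosome biogenesis were -0.22 and 0.03. MEP2, an ammonium carrier, had 106 and 79.1 CPM against 182 and 157 CPM, and GAT1, an activator of nitrogen genes, 237 and 204 CPM against 370 and 406 CPM. HSP12, a small stress protein, had 137 and 109 CPM against 223 and 228 CPM, and HSP10, a mitochondrial chaperonin, 337 and 262 CPM against 135 and 208 CPM. SSB1, a chaperone on the ribosome, had 5038 and 3818 CPM against 5189 and 5544 CPM, and LYS1, of lysine synthesis, 142 and 105 CPM against 224 and 185 CPM. RLP24, of large-subunit assembly, had 76.4 and 81.2 CPM against 24.2 and 31.7 CPM (change -1.49 ± 0.39, edgeR adjusted p = 0.187), and KRE33, a cytidine acetyltransferase of ribosomal RNA, 126 and 196 CPM against 317 and 272 CPM. FUN12, the translation factor eIF5B, had 814 and 825 CPM against 1030 and 902 CPM. PYK2 and CDC19, the pyruvate kinases, had 30.2 and 29.3 CPM against 53.6 and 46.9 CPM and 17208 and 11370 CPM against 18746 and 19754 CPM. PDC1, pyruvate decarboxylase, had 30625 and 19771 CPM against 30329 and 31795 CPM, with overlapping groups.

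**Figure D5:**
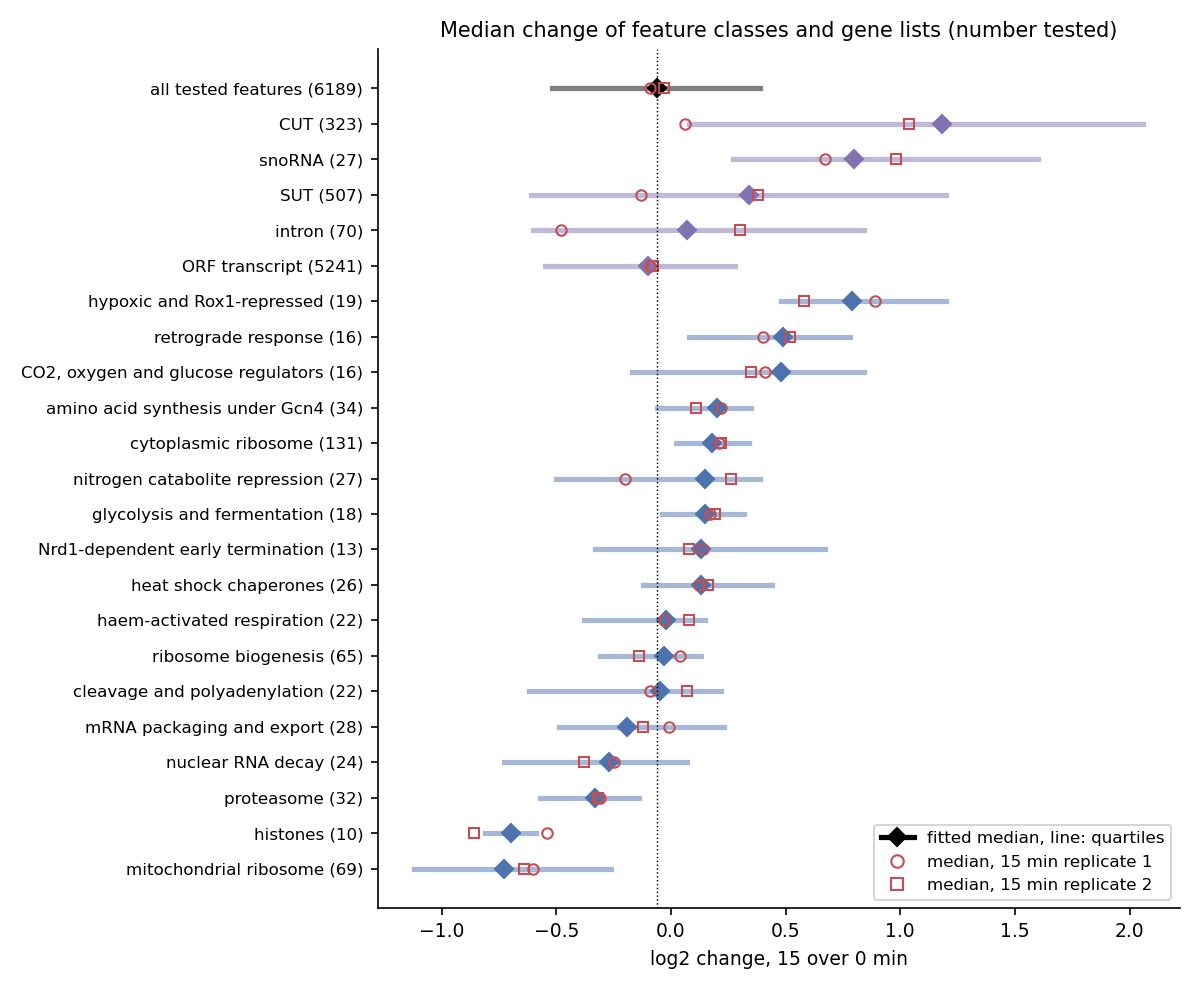
Median change from 0 to 15 min (x axis, log2) of feature classes (purple) and gene lists (blue), with the number tested in brackets, the quartiles as a line and the median of each 15 min library as an open symbol. CUTs at 1.18 and hypoxic genes at 0.79 lie to the right of all features at -0.06, histones at -0.70 and the mitochondrial ribosome at -0.73 lie to the left, and the CUT medians of the single libraries are 0.06 and 1.04.

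Few features went on or off. Counts were 0 in both 0 min libraries and above 0 in both 15 min libraries for 12 features, 0 of which reached 10 counts in both. The opposite held for 84 features, of which CUT310, SUT538, SUT571 and YML089C had at least 10 counts in both 0 min libraries. The 0 min libraries held more counts, and the part of depth in this difference was not tested.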

How the data were processed

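The 8 libraries fall in 4 groups of 2. The authors deposited whole-number raw counts per feature. Build R64, GSNAP 2012-01-11, bedtools 2.17.0 and HTSeq 0.5.3 are listed in the submitters' processing notes. The labels describe depletion of ribosomal RNA, removal of most small RNA and strand-specific libraries. How reads were counted and whether duplicates were removed is not given in the sources used here. A fission yeast spike-in is named in the labels, and the count table had 0 spike-in features, so TMM was used for scaling.

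The table held 7711 rows, and 31 exact repeats and 22 entries that shadow a gene were left out. Of the 7658 features used, 297 are composites of more than 1 gene, whose counts cannot be assigned to a single gene. RefSeq R64 gave coordinates, lengths and promoter stretches, and matched 5442 of 5589 names.

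The filterByExpr function of edgeR 4.0.16 (R 4.3.3) kept 6189 features. Counts were scaled by TMM and fitted over all 8 libraries with 1 term a group (glmQLFit, robust = TRUE, 4 residual degrees of freedom, common dispersion 0.372, median prior degrees of freedom 13.58). The test was 2-sided with Benjamini-Hochberg adjustment over all tested features, and the steps were tested on simulated data. limma 3.58.1 (voom) and DESeq2 1.42.0 were alternatives. Standard errors are the change divided by the root of F. Log2 levels by library used a prior count of 2.

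The gene lists and members were chosen with earlier results of these data known. Named are the anchor components, all features that passed, the 10 rises and 10 falls of next smallest p (mean of at least 50 counts, groups not overlapping), and, per list and class, the 2 smallest p and the highest mean count. The members so chosen among tRNAs, mitochondrial genome features and other classes, and the RPL35A intron, are not described, apart from the reads of the COX1 intron. CLN3, SEN1, RRP42, CLP1, RNA14, IMD3, PAP2, TIR3, CYB5, HEM13, HMG2, CYC1, HYP2, ADR1, SNF1, SUC2, CAT8, CST6, PYC1, DLD3, CTP1, ATO3, RPS9B, CUT557, CUT445, the second INO1 feature and the on-off features were chosen after their values were seen. So were URA8, URA4, KAP95, AAC3, COX5B, TIR2 and RPP1.

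Replicate numbers follow the sample descriptions (the 30 min replicate 2 is numbered 3 in its title). The main fit did not use them to pair the samples.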

Additional observations from a re-analysis of the deposited data

How the results depend on the processing

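The 10 features that passed kept their direction under all 25 alternatives, and 0 of them reversed. The number that passed was 29 by total library size, 0 on mitochondrial genome counts (437 at an unadjusted p under 0.05), 1063 on snoRNA counts, 75 with no filter, 67 with the DESeq2 Wald test, 60 with limma-voom, 20 with only the 4 libraries of the comparison and 3 without the 3 libraries over 20% at 0 counts. It ranged from 0 to 15 when 1 library was left out. The lone library left in a group is then assumed to vary like the other groups. The main fit did not pair samples by replicate number. The deviations of same-numbered samples at 0 and 15 min correlated at -0.01 over all tested features. As many of these features hold few reads, this cannot decide whether same-numbered samples belong together. With a replicate block 17 features passed, or 55 with the block and only the 4 libraries. RLE scaling (10), upper-quartile scaling (11), a minimum mean of 50 counts (8), robust = FALSE (11), only the anchor-away libraries (14), all rows (10) and no composites (10) stayed within 1.5 times the 10. The median of all features was -0.24 by total size, -0.54 on mitochondrial genome counts and -0.92 on snoRNA counts. Mitochondrial genome counts are mainly the COX1 intron and snoRNA counts mainly SNR30. The CUT median was 0.33 on snoRNA counts and ranged from 0.01 to 1.28 with 1 library left out, and the CUT share ratio from 2.04 to 2.15.

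The values that changed sign were all of features that missed the threshold. On mitochondrial genome counts they were PDC1 at -0.17, the HAC1 intron at -0.36, YRA1 at -0.23, ERG25 at -0.03, YHB1 at -0.32, ACO1 at -0.10, FUN12 at -0.24, SSB1 at -0.20, RPN2 at -0.29, CDC19 at -0.04, MRP4 at -0.34, RPS9B at -0.15, PAP2 at -0.38, HMG2 at -0.46 and IMD3 at -0.34. On snoRNA counts these became, in the same order, -0.50, -0.70, -0.57, -0.40, -0.68, -0.47, -0.61, -0.54, -0.66, -0.37, -0.68, -0.53, -0.80, -0.82 and -0.69. Also negative on snoRNA counts were SNR30 at -0.01, LSR1 at -0.05, SCR1 at -0.21, URA2 at -0.32, PAB1 at -0.31, GAT1 at -0.02, KRE33 at -0.02, LYS1 at -0.08, PYK2 at -0.08, HXT3 at -0.26, CLN3 at -0.03, CYB5 at -0.02, PYC1 at -0.13 and DLD3 at -0.21. By total size the HAC1 intron was at -0.04, YHB1 at -0.01, MRP4 at -0.02, PAP2 at -0.10, HMG2 at -0.15 and IMD3 at -0.02. SUT802 was at 0.03 and HEM13 at 0.04 both by RLE and in DESeq2, 0.01 and 0.02 with a minimum mean of 50 counts, and 0.08 and 0.09 by upper quartile, where RPL3 was at 0.00 and HYP2/MTC7 at 0.01. Without the 3 libraries over 20% at 0 counts SUT802 was at 0.20, MRP4 at -0.24, PAP2 at -0.10 and HMG2 at -0.05. With 1 library left out the ranges were -0.41 to 0.17 for TOR1, -0.31 to 0.22 for SUT802, -0.09 to 0.38 for the HAC1 intron, -0.37 to 0.23 for RPL3, -0.21 to 0.46 for MRP4, -0.35 to 0.23 for HYP2/MTC7, -0.27 to 0.69 for PAP2, -0.35 to 0.28 for HEM13, -0.05 to 0.12 for HMG2 and -0.02 to 0.34 for IMD3. The cause of these changes was not tested. Few reads limit the values of single CUTs, whose median mean count was 16.4.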
